A study of Homo sapiens with 30 samples.

Results

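The change between 6 h and 24 h of treatment with 0.5 µM Omomyc was measured in Ramos cells by RNA-Seq. The members are the 6 libraries of the series, of 30 in all, that the labels give as Ramos cells treated with 500 nM Omomyc, 3 for 24 h and 3 for 6 h. The 3 libraries from untreated Ramos cells served as the reference for which changes at 6 h were no longer present at 24 h. Of 57992 genes in the table, the 13611 whose mean RPKM over the 6 treated libraries reached 0.5 were tested. RPKM is a read density, the reads of a gene over its length and the size of the library. The series holds 15 Ramos libraries in 5 groups, the other 2 groups being 2.5 µM Omomyc for 6 and 24 h, and 15 libraries of another cell line that were not used here. Ramos is a human Burkitt's lymphoma line that carries a MYC translocation per the labels. The RNA was total RNA depleted of rRNA, prepared with a stranded kit. In a separate tag of the labels the libraries titled 24 h read 4 h, and 24 h was used because the titles and the design of the series give it. The untreated libraries have no time point, so the effects of time in culture and of time with Omomyc cannot be told apart. Whether the untreated cells received a vehicle or reagent is not given in the sources used here, so that differences from untreated cells may include handling. The labels do not say whether the 3 replicates of a group were separate cultures, and the p-values measure the spread between these libraries, which may be technical.

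MYC is a basic helix-loop-helix leucine zipper transcription factor that binds E-box DNA as a heterodimer with MAX and promotes growth, ribosome production and entry into S phase. Omomyc is a miniprotein derived from the dimerization and DNA-binding region of MYC that dimerizes with MAX or with itself and occupies E boxes without a transactivation domain. Burkitt's lymphoma arises from germinal center B cells and places MYC under the control of an immunoglobulin locus. Germinal center B cells alternate between a dark zone state, in which they divide, and a light zone state, in which signals from the B cell receptor, CD40 and NF-kB induce activation genes, chemokines and antigen presentation.

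The libraries had the markers of B cells. All 6 markers of this cell type, among them MS4A1, CD79A and PAX5, had a mean RPKM of at least 0.5 in each group, and their summed RPKM ranged from 1170 to 1340 over the 9 libraries. Of the 9 myeloid markers none reached a mean RPKM of 0.5 in any group, and the same held for the 9 markers of colon epithelium, the tissue of the other line. The summed RPKM of the colon markers was 0.176 to 0.45 in the untreated and 6 h libraries and 0.794 to 1.84 at 24 h, and the part of this in the results was not tested. Of 10 T cell markers 2 or 3 reached a mean of 0.5 in a group and 3 to 5 were at 0 in every library of a group. Their summed RPKM was 157 to 172 in untreated cells, 126 to 130 at 6 h and 153 to 157 at 24 h, most of it from the receptor constant genes TRBC2 and TRAC. TRAC was lower at 6 h than in untreated cells, with a log2 change of -0.79 ± 0.064 (SE, n = 3 per group). From 6 h to 24 h TRAC rose by 0.73 ± 0.052, as did most of the tested chemokine and light zone genes described below. The part of TRAC in those results was not tested. Over all expressed genes, the correlation of log2 values between libraries was 0.989 to 0.992 within the 24 h group, 0.991 to 0.994 within the 6 h group and 0.981 to 0.986 between these groups. Between the 24 h and the untreated libraries it was 0.986 to 0.992. On the first principal component of the 9 libraries, with 37.6% of the variance, the 6 h libraries lay at 21.9 to 24.5, the 24 h libraries at -15.5 to -6.88 and the untreated libraries at -18.2 to -8.18. Untreated replicate 2 lay apart on the second component, at 24.5. The summed RPKM per library ranged from 829685 to 973736, and the number of reads is not given in the sources used here, so that error can be judged from the spread of the 3 replicates alone.

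Between 6 h and 24 h, 3462 of 13611 genes (25.4%) differed at an adjusted p under 0.05 (limma with Benjamini-Hochberg adjustment, as for all adjusted p-values here), with 1622 (11.9%) higher and 1840 (13.5%) lower at 24 h. Fold changes are differences of log2(RPKM + 0.5), a scale on which the changes of genes with a low RPKM are understated. The median over all genes was -0.0043. Most differences were small on this scale, and 117 genes had an absolute log2 change of at least 1, of which 100 were higher and 17 lower at 24 h. The 24 h and 6 h libraries did not overlap for 5708 genes (41.9%). In these bulk samples a change in the share of cells that express a gene and a change in the RNA per cell cannot be told apart. The exact permutation test for a single gene cannot go below p = 0.1 with 3 libraries against 3.

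At a mean RPKM of 2 or more, the 4 largest rises were those of CCL1, FCRL5, CCL3 and CCL4, 3 chemokines and a surface receptor. CCL1, a chemokine (chromosome 17, 34360328 to 34363231 in GRCh38, GENCODE release 29), had an RPKM of 8.53, 4.48 and 6.92 in untreated cells, 0.207, 0.468 and 0.0439 at 6 h and 9.72, 8.46 and 8.79 at 24 h. The 6 h libraries were all below 0.5, and the lowest 24 h library lay above 2 of the 3 untreated libraries. The log2 change from 6 h to 24 h was 3.72 ± 0.20 (SE, n = 3 per group, adjusted p = 2.22e-05). FCRL5, an Fc receptor-like protein of B cells (chromosome 1, 157513377 to 157552520), had an RPKM of 15.6, 15.2 and 12.3 in untreated cells, 1.11, 0.9997 and 0.840 at 6 h and 22.1, 16.8 and 16.6 at 24 h. Every 24 h library was above every 6 h library and above the untreated range, with a log2 change from 6 h of 3.67 ± 0.13 (adjusted p = 1.53e-06). CCL3, a chemokine that B cells release after receptor engagement (chromosome 17, 36088256 to 36090169), had an RPKM of 20.9, 20.0 and 18.1 in untreated cells, 2.21, 1.35 and 2.33 at 6 h and 29.7, 18.3 and 19.1 at 24 h. At 24 h replicate 1 was the highest of the 9 libraries and the other 2 lay within or near the untreated range, and the log2 change was 3.21 ± 0.20 (adjusted p = 2.97e-05). CCL4, a chemokine encoded near CCL3, followed with 3.05 ± 0.21 (adjusted p = 3.02e-05).

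**Figure D1:**
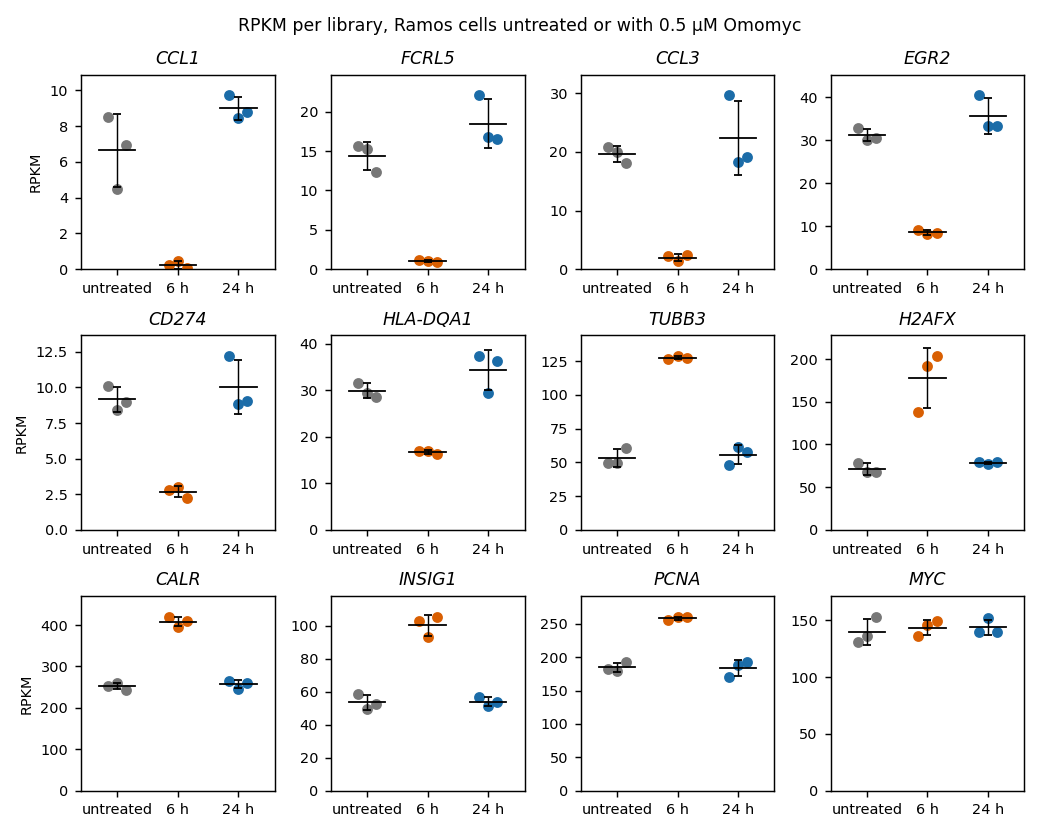
RPKM (vertical axes, linear from 0) of 12 genes in each library of Ramos cells untreated or treated with 0.5 µM Omomyc for 6 h or 24 h; points are libraries, horizontal lines are means and bars are SD (n = 3). The 6 h libraries of the first 6 genes lie below, and those of the next 5 above, both other groups, while the 3 groups of MYC overlap.

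STAT5A, a transcription factor downstream of cytokine receptors, had an RPKM of 4.81, 3.45 and 3.28 in untreated cells, 0.434, 0.242 and 0.521 at 6 h and 5.43, 4.47 and 3.74 at 24 h, and the integrin subunit ITGB2 of 6.37, 4.01 and 3.59 in untreated cells, 0.499, 0.365 and 0.762 at 6 h and 6.76, 4.25 and 4.94 at 24 h. In both genes the 6 h libraries were below 1 and the 24 h and untreated libraries overlapped. Their log2 changes from 6 h to 24 h were 2.49 ± 0.18 and 2.48 ± 0.19. EGR2, a zinc finger transcription factor induced by antigen receptor and ERK signaling, was the most abundant of the 12 genes with the largest rises, with an RPKM of 32.7, 30.1 and 30.5 in untreated cells, 9.09, 8.05 and 8.42 at 6 h and 40.4, 33.2 and 33.3 at 24 h. Its log2 change was 2.00 ± 0.085 (adjusted p = 4.70e-06). EBI3, a cytokine subunit, rose by 2.12 ± 0.20, ZEB2, a transcriptional repressor, by 1.98 ± 0.13 and FCMR, the Fc receptor for IgM, by 1.95 ± 0.17. The other 2 genes among these 12 are uncertain. CCL3L1 (2.18 ± 0.24) is a near-identical copy of CCL3, and the readthrough gene HSPE1-MOB4 (2.15 ± 0.55) shares its exons with HSPE1 and MOB4. HSPE1-MOB4 was at 1.56 in 6 h replicate 3 and near 0 in the other 2, and its change did not pass without 6 h replicate 1 (1.81), 6 h replicate 2 (1.81) or 24 h replicate 3 (1.67).

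The 12 largest falls were smaller. FAM92B, now named CIBAR2 and a partner of ciliary proteins (chromosome 16, 85098358 to 85112508), had an RPKM of 1.82, 1.25 and 1.14 in untreated cells, 3.35, 3.21 and 3.96 at 6 h and 0.809, 0.783 and 0.620 at 24 h. All 3 of its 24 h libraries were below the lowest untreated library, and the log2 change from 6 h was -1.69 ± 0.14 (adjusted p = 5.99e-05). SELPLG, the P-selectin ligand of leukocytes, had an RPKM of 1.65, 1.57 and 2.12 in untreated cells, 4.75, 5.27 and 5.26 at 6 h and 1.43, 1.82 and 1.73 at 24 h, and fell by 1.37 ± 0.12 on the log2 scale. TUBB3, a beta-tubulin, had an RPKM of 49.8, 49.3 and 60.9 in untreated cells, 127, 129 and 127 at 6 h and 47.7, 61.1 and 58.0 at 24 h. Here the 6 h libraries were far above both other groups, which overlapped, with a log2 change of -1.20 ± 0.079 (adjusted p = 2.97e-05). H2AFX, the H2A variant phosphorylated at DNA breaks, had an RPKM of 78.7, 67.4 and 67.6 in untreated cells, 138, 192 and 203 at 6 h and 79.3, 77.3 and 79.6 at 24 h, with 6 h replicate 1 the lowest of its group and a log2 change of -1.15 ± 0.12. DERL3, a component of ER-associated degradation, changed by -1.24 ± 0.12 and E2F7, a repressor of the E2F family, by -1.01 ± 0.10. SAMD1, a chromatin protein that binds CpG islands, changed by -1.07 ± 0.089. GTF2IRD2B (-1.30 ± 0.20) has a near-identical copy and is uncertain. CSDC2, CFAP73, LZTS1 and SRD5A3 complete the 12, with changes of -1.13 to -0.94.

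**Figure D2:**
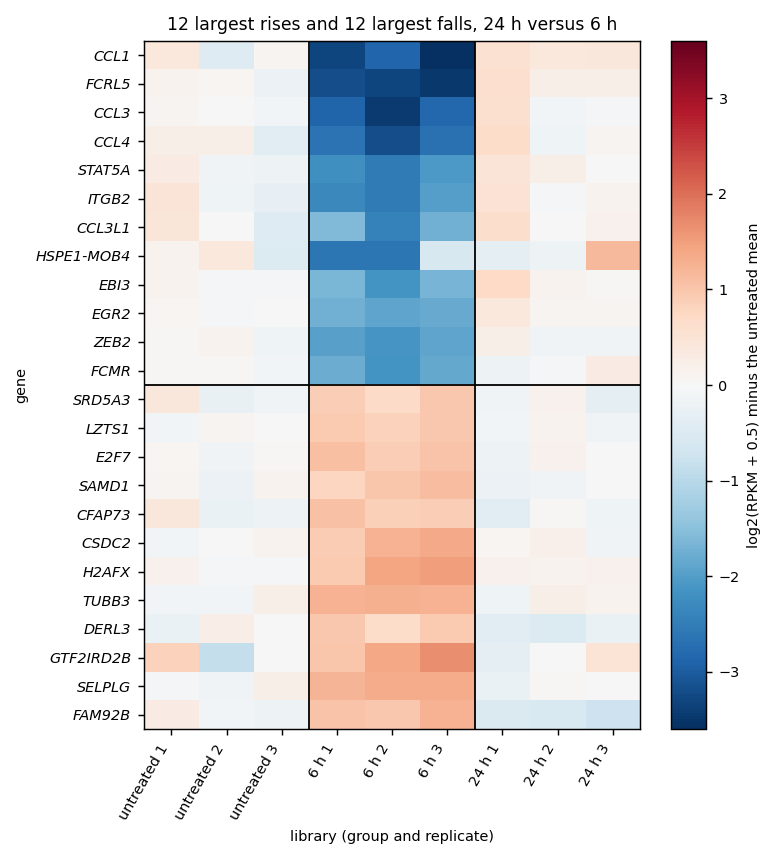
Heat map of log2(RPKM + 0.5) minus the mean of the 3 untreated libraries (color) for the 12 largest rises (upper rows) and 12 largest falls (lower rows) from 6 h to 24 h, with 1 column per library. The 6 h columns differ from the untreated columns in nearly every row, and most 24 h rows lie near 0, FAM92B being lower than untreated in the 3 libraries.

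Promoter windows of 300 bases (250 before and 50 after a RefSeq start, GRCh38.p14) give the sequence around a start of the genes that changed most. They are shown for the first 3 rises and the first 3 falls that have an entry in the promoter table. ODC1, which encodes ornithine decarboxylase, the first enzyme of polyamine synthesis, is added because a window of this gene holds the E box. It was chosen after its sequence was seen. Of the 2 windows of ODC1, the window with the most copies of the E box is shown. For each other gene the window nearest its GENCODE start is shown. The windows are at chr17:34363184-34363483, minus strand (CCL1), chr1:157552466-157552765, minus strand (FCRL5), chr17:36090094-36090393, minus strand (CCL3), chr16:85112423-85112722, minus strand (FAM92B), chr16:89921675-89921974, plus strand (TUBB3), chr11:119095416-119095715, minus strand (H2AFX) and chr2:10447963-10448262, minus strand (ODC1). They are written 5′ to 3′ on the strand of the gene, with the E box CACGTG and the TATA box letters TATAAA in capitals.
CCL1: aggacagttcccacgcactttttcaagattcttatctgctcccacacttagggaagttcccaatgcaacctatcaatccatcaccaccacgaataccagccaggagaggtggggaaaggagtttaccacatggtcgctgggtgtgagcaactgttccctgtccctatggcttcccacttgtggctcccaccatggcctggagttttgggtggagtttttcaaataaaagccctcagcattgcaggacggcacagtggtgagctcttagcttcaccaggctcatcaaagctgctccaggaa
FCRL5: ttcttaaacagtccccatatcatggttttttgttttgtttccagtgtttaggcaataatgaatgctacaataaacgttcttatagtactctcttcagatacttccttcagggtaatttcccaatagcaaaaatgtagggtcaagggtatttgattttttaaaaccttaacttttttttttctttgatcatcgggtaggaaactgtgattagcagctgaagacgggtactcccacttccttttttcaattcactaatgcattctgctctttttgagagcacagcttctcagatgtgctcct
CCL3: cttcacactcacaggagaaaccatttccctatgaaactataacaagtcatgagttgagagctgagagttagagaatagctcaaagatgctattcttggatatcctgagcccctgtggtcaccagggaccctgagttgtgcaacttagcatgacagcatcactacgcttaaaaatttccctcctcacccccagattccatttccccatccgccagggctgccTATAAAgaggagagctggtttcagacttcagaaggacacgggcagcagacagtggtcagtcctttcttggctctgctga
FAM92B: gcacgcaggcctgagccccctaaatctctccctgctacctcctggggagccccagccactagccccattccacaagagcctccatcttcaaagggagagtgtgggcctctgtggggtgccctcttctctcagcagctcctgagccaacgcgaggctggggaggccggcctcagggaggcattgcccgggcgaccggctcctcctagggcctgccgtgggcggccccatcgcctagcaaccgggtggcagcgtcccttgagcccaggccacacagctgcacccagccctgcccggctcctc
TUBB3: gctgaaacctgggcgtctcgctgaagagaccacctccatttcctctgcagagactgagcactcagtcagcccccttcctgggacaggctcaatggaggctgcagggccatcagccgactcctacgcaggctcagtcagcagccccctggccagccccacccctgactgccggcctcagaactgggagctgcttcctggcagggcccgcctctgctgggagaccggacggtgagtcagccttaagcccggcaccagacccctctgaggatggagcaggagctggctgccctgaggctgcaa
H2AFX: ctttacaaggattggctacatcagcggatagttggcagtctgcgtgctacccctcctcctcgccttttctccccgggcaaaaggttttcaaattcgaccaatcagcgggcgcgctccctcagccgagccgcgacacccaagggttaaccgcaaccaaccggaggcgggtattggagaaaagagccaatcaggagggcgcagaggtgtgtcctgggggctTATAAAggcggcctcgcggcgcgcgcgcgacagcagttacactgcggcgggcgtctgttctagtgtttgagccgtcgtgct
ODC1: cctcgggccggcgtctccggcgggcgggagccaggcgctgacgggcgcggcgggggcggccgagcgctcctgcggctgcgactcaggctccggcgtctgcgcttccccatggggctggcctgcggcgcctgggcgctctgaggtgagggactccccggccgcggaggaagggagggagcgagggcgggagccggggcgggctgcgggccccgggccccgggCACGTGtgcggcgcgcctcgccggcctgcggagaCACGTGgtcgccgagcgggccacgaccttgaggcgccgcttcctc

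The letters CACGTG are absent from the windows shown for the 3 rises and the 3 falls. They occur at positions 222 and 256 of the ODC1 window, counted from 1 at its 5′ end. The RefSeq start of the TUBB3 window lies 533 bases from the GENCODE start, and other windows of TUBB3 and CCL3 are not shown. TATAAA occurs at position 222 of the CCL3 window and position 220 of the H2AFX window. CACGTG reads the same on both strands. It occurs in 7.26% of all 35116 windows in the table and, with 1 window per gene, in 10.5% of the 8739 tested protein-coding genes that matched an entry, of 10567 tested. The share was 10.3% (118 of 1147) for the genes higher at 24 h, 10.7% (148 of 1388) for those lower at 24 h and 10.5% for those that were not called. The AP-1 site TGANTCA, which also reads the same on both strands and was chosen after the data were seen, occurred in 5.06% of the windows of genes higher at 24 h, 2.81% of those lower and 3.95% of those not called (7.71% of all windows). An NF-kB consensus, searched on both strands and also chosen with the data known, occurred in 7.06%, 6.70% and 6.21% of these windows (5.91% of all windows). TATAAA, searched on the strand of the gene, occurred in 5.06%, 4.39% and 3.37% of these windows (7.33% of all windows). A match to these letters is a description of the window and does not show binding.

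The genes higher at 24 h included most of the tested chemokine and light zone genes. In the list of chemokines and their receptors 6 of 10 tested genes rose and 1 fell, with a median log2 change of 1.18, against 11.9% and 13.5% and a median of -0.0043 over all genes. Those that rose were CCL3, CCL4, its copy CCL4L2 (1.68), CCL22 (2.46 ± 0.23), which attracts T cells, and the receptors CCR7 (2.03 ± 0.17) and CCR6 (0.68). CCR7, which guides B cells to the T cell zone, had an RPKM of 1.38, 0.945 and 1.43 in untreated cells, 0.174, 0.162 and 0.132 at 6 h and 2.51, 1.96 and 2.12 at 24 h, so that each 24 h library was above each untreated library. CCL1 and CCL3L1 are not on this list. CXCR4, the receptor of dark zone cells, was the member that fell (-0.21). Of 12 light zone genes 9 rose and 0 fell (median 0.72). They were led by EBI3, CCR7, SLAMF1 (1.80 ± 0.16), a B cell surface receptor, and the survival gene BCL2A1, whose RPKM was 52.7, 42.4 and 41.3 in untreated cells, 26.9, 24.8 and 23.3 at 6 h and 60.7, 51.4 and 49.8 at 24 h. CD83 (0.81 ± 0.083), BATF (0.74), TRAF1 (0.70), CD40 (0.40) and CD86 (0.31) also rose, but CD86 did not pass without any one of 5 of the 6 libraries (0.28 to 0.33). MYC, IRF4 and NFKBIA are the 3 members that did not pass, with 0.0016, 0.10 and -0.12. Of 11 dark zone genes 4 fell, 2 rose, among them the transcription factor gene FOXP1 (0.29 ± 0.060), and 5 did not pass. S1PR2, a receptor that confines cells to the germinal center (-0.68), the cyclin CCND3 (-0.67) and BCL6 (-0.50), the repressor that defines germinal center cells, were among those that fell.

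Targets and feedback regulators of NF-kB rose in 10 of 20 cases and fell in 2 (median 0.37). TNFAIP3, which encodes the inhibitor A20, had an RPKM of 7.34, 7.04 and 6.18 in untreated cells, 3.10, 3.58 and 3.51 at 6 h and 7.56, 5.90 and 6.19 at 24 h, with no overlap between 6 h and 24 h and a log2 change of 0.85 ± 0.11. The subunit genes REL (0.54) and NFKB1 (0.37) rose, while RELB (-0.42) and RELA (-0.25) fell. Of 6 feedback genes of the ERK pathway 4 rose and 1 fell. The phosphatase gene DUSP5 rose by 1.85 ± 0.17 and PHLDA1 by 1.31 ± 0.11, and the abundant DUSP2 had an RPKM of 257, 228 and 227 in untreated cells, 134, 140.2 and 151 at 6 h and 276, 243 and 283 at 24 h. SPRED2, an inhibitor of RAF activation, was the member that fell (-0.30). Among 18 immediate early genes 3 rose (EGR2, NR4A3 at 0.87 and BTG2 at 0.62) and 1 fell, SRF (-0.24). These shares, 16.7% higher and 5.56% lower, were near or below the 11.9% and 13.5% of all genes. SRF did not pass in 4 of the 6 fits that left out 1 library (-0.25 to -0.19). FOS, FOSB, JUN, JUNB and EGR1 did not pass, with log2 changes of 0.016 to 0.21.

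The genes of antigen presentation by MHC class II rose together. In all, 13 of 13 tested members passed, from 0.24 for HLA-DPA1 to 1.01 for HLA-DQA1, with a median of 0.47. HLA-DQA1 had an RPKM of 31.6, 29.5 and 28.5 in untreated cells, 16.8, 17.0 and 16.3 at 6 h and 37.3, 29.5 and 36.3 at 24 h. The 6 h libraries lay close together and below both other groups, and the 24 h and untreated ranges overlapped. CIITA, the coactivator that drives these genes, rose by 0.50 ± 0.075 and CD74, the invariant chain, by 0.34 ± 0.054. The HLA-DR and HLA-DQ genes have near-identical copies between which reads can be shared. Of 21 interferon response genes 13 rose and 0 fell (median 0.55). MX1 had an RPKM of 21.9, 20.3 and 15.2 in untreated cells, 10.3, 10.5 and 10.3 at 6 h and 28.4, 18.7 and 15.6 at 24 h, and IFI6 and IFIT1 rose by 1.10 and 1.13. In this list 24 h replicate 1 was the highest of the 24 h libraries for MX1, IFI6, IFIT1 and IFIT3. IFIT3 (0.93) did not pass without 6 h replicate 2 (0.88). Of 4 tested ligands of immune checkpoints 3 rose. CD274, which encodes PD-L1, had an RPKM of 10.1, 8.39 and 8.94 in untreated cells, 2.82, 3.01 and 2.24 at 6 h and 12.2, 8.85 and 9.04 at 24 h, and its log2 change was 1.72 ± 0.14 (adjusted p = 5.84e-05).

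Genes of S phase were lower at 24 h. Of 59 replication-dependent histone genes 48 fell and 2 rose, with a median log2 change of -0.52, the lowest median of the gene lists examined that had at least 4 tested members. HIST1H3B had an RPKM of 691, 698 and 861 in untreated cells, 1002, 1198 and 1355 at 6 h and 685, 735 and 570.3 at 24 h. At 24 h each library was below each 6 h library, and the log2 change was -0.83 ± 0.12. Histone genes of 1 class are near-identical, so reads may be split between them, and their transcripts, which lack a poly(A) tail, are retained in total RNA. In the list of DNA replication 22 of 36 genes fell and 2 rose (median -0.23). PCNA, the sliding clamp of DNA polymerases, had an RPKM of 182, 179.7 and 193 in untreated cells, 256, 260.1 and 259.6 at 6 h and 171, 188 and 193 at 24 h and fell by 0.49 ± 0.051 on the log2 scale. CDC45 (-0.64), a part of the replicative helicase, FEN1 (-0.52) and LIG1 (-0.48), which mature Okazaki fragments, also fell. The helicase genes MCM4 (-0.44) and MCM7 (-0.46) fell, whereas MCM2, MCM3, MCM5 and MCM6 did not pass, at -0.15 to -0.062. Of 26 nucleotide synthesis genes 9 fell and 1 rose. The largest falls there were those of the dTMP and dNTP enzymes TYMS (-0.78 ± 0.063), RRM2 (-0.69 ± 0.051) and TK1 (-0.61 ± 0.058), and the purine genes PPAT, PAICS and PFAS did not pass.

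Of 17 genes of G1 control 10 fell and 2 rose (median -0.37). CCNE2, the S phase cyclin E2, fell by 0.82 ± 0.073 and E2F1 by 0.63 ± 0.054 on the log2 scale. CDKN1B, which encodes the CDK inhibitor p27, moved the other way. Its RPKM was 5.17, 4.39 and 4.91 in untreated cells, 2.75, 2.34 and 2.46 at 6 h and 7.003, 6.15 and 5.42 at 24 h, each 24 h library being above each untreated library, with a log2 change from 6 h of 1.15 ± 0.12 (adjusted p = 0.00017). Genes of mitosis divided, with 14 of 39 higher and 10 lower at 24 h (median 0.041). Those that rose included CCNB1 (0.83 ± 0.055), CCNB2 (0.59 ± 0.054), AURKA (0.49 ± 0.060), PLK1 (0.30) and CDC20 (0.36). Those that fell included MKI67 (-0.51 ± 0.061), FOXM1 (-0.48), NUSAP1 (-0.43) and CDK1 (-0.24). CCNB1, which encodes cyclin B1, had an RPKM of 112, 103 and 100.03 in untreated cells, 61.5, 60.3 and 53.9 at 6 h and 105.1, 102 and 106 at 24 h.

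Most tested genes of sterol synthesis and of ER folding were also lower at 24 h. Of 23 targets of SREBP2 16 fell and 0 rose (median -0.28). INSIG1, which retains the SREBP2 escort protein in the ER when sterols are plentiful, had an RPKM of 58.6, 49.7 and 52.6 in untreated cells, 103, 93.0 and 105.1 at 6 h and 56.7, 51.2 and 53.9 at 24 h. The 6 h libraries were far above both other groups, which overlapped, and the log2 change was -0.89 ± 0.059 (adjusted p = 2.97e-05). SQLE and IDI1, which encode enzymes of the pathway, changed by -0.44 and -0.40, whereas LSS (-0.094), lanosterol synthase, did not pass. Of 26 genes of ER folding and the unfolded protein response 15 fell and 3 rose (median -0.22). The chaperone gene CALR had an RPKM of 253, 259.98 and 244 in untreated cells, 419, 396 and 409.6 at 6 h and 266, 246 and 261 at 24 h and changed by -0.66 ± 0.047. HSPA5, which encodes BiP, changed by -0.58 ± 0.051, PDIA3 and PDIA6 by -0.65 and -0.63, and SDF2L1 by -0.77 ± 0.082. The sensor genes ATF6, ERN1 and EIF2AK3 and the factor XBP1 did not pass, and EDEM1 (0.26), HERPUD1 (0.24) and SEC61B (0.16) rose. Of 6 tested plasma cell markers 2 fell, JCHAIN (-0.68 ± 0.080) and MZB1 (-0.62 ± 0.055), which serve IgM assembly, and 2 rose, TNFRSF17 (0.29 ± 0.059) and PRDM1 (0.63 ± 0.20), with a list median of 0.13. The summed RPKM of the 7 plasma cell markers was 1480 to 1590 in untreated cells, 2270 to 2470 at 6 h and 1410 to 1720 at 24 h, most of it from JCHAIN (a mean of 2020 at 6 h), and 6 of the 7 had a mean RPKM of at least 0.5 in each group. The part of this in the results was not tested. For PRDM1, which specifies plasma cells, the call was lost without any one of 5 of the 6 libraries (0.48 to 0.73).

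Genes of amino acid supply and of tRNA charging rose modestly. Of 28 ATF4 and amino acid response genes 13 rose and 2 fell (median 0.14). The transporters SLC7A11 (0.89 ± 0.10) and SLC38A2 (0.77 ± 0.14) and the mTORC1 inhibitor DDIT4 (0.69 ± 0.057) led them, and ASNS, asparagine synthetase, had an RPKM of 175, 156 and 166 in untreated cells, 156, 144 and 146 at 6 h and 163, 164 and 165 at 24 h with a change of 0.14 ± 0.043 (adjusted p = 0.0401). The change in ASNS did not pass without any one of 5 of the 6 libraries (0.12 to 0.14). SLC7A5, the large neutral amino acid transporter, was among those that fell (-0.20). Of 20 cytosolic aminoacyl-tRNA synthetases 12 rose and 0 fell, led by WARS (0.67 ± 0.061), whose RPKM was 230.1, 234 and 213 in untreated cells, 157, 141 and 148 at 6 h and 259, 229 and 227 at 24 h. Of 24 host genes of snoRNAs 12 rose and 0 fell (median 0.18), with SNHG19 (0.52) and SNHG4 (0.48) among them. TXNIP, an inhibitor of glucose uptake and a target of MondoA, which pairs with the MAX-like protein MLX, had an RPKM of 9.84, 9.75 and 11.2 in untreated cells, 5.07, 5.58 and 5.56 at 6 h and 9.78, 10.3 and 10.7 at 24 h and rose by 0.87 ± 0.079.

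Genes of the BCL2 family rose in 7 of 14 cases (50%, beside 11.9% of all genes) and fell in 2. The share that fell, 14.3%, was near the 13.5% of all genes. Beside the survival gene BCL2A1 the rises were of the death-promoting genes HRK (0.95 ± 0.15), BCL2L11 (0.86 ± 0.063), BAK1 (0.48 ± 0.057), BMF (0.40) and PMAIP1 (0.28), and of MCL1 (0.17). BAD (-0.46) and BID (-0.38), which also promote death, fell. Of 17 p53 targets 3 rose and 2 fell, shares near the 11.9% and 13.5% of all genes, and CDKN1A (-0.34) did not pass. B cell identity and receptor genes divided evenly, with 8 of 28 higher and 9 lower. PTPN6, an inhibitory phosphatase of the B cell receptor (0.80 ± 0.050), the CD20 gene MS4A1 (0.51 ± 0.056) and EBF1 (0.43 ± 0.083) rose, and VPREB3 (-0.73 ± 0.095), SPIB (-0.52 ± 0.049) and the receptor subunits CD79B (-0.40 ± 0.073) and CD79A (-0.22 ± 0.053) fell, CD79A not without 6 h replicate 3 (-0.20). PAX5 did not pass, at -0.088.

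The transcript of MYC itself did not pass the test. Its RPKM was 131, 137 and 153 in untreated cells, 136, 146 and 149 at 6 h and 140.1, 152 and 139.7 at 24 h, the 3 groups overlapped, and the log2 change from 6 h to 24 h was 0.0016 ± 0.052 (adjusted p = 0.985). The sign of this change differed between scalings. MAX changed by -0.10 ± 0.054 (adjusted p = 0.198). Of the 11 tested genes of the MYC, MAX and MLX network, MXD3, a repressor that competes for MAX, was the member that passed, with an RPKM of 7.83, 11.3 and 10.8 in untreated cells, 16.5, 18.6 and 19.2 at 6 h and 9.75, 10.9 and 9.11 at 24 h and a change of -0.84 ± 0.085 (adjusted p = 0.00017). ID3, an inhibitor of E proteins, changed by -0.0071 ± 0.049 (adjusted p = 0.931). Against untreated cells ID3 was higher by 0.184 ± 0.046 at 6 h (adjusted p = 0.0196) and by 0.177 ± 0.049 at 24 h (adjusted p = 0.784). The E protein genes TCF3 (-0.51 ± 0.061) and TCF4 (0.47 ± 0.055) passed in opposite directions. Ornithine decarboxylase, ODC1, is a textbook MYC target, and a promoter window chosen for its E boxes is shown above. The RPKM of ODC1 was 579.6, 589 and 575 in untreated cells, 822, 861 and 817 at 6 h and 559, 589.8 and 615 at 24 h. It changed by -0.50 ± 0.051 (adjusted p = 0.000172), and the polyamine catabolic enzyme SAT1 by 0.41 ± 0.075. Of 79 cytosolic ribosomal protein genes 8 rose and 0 fell (10.1%, beside 11.9% for all genes). Ribosome biogenesis factors rose in 9 and fell in 7 of 52 cases, and translation factors rose in 5 and fell in 2 of 39.

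**Figure D3:**
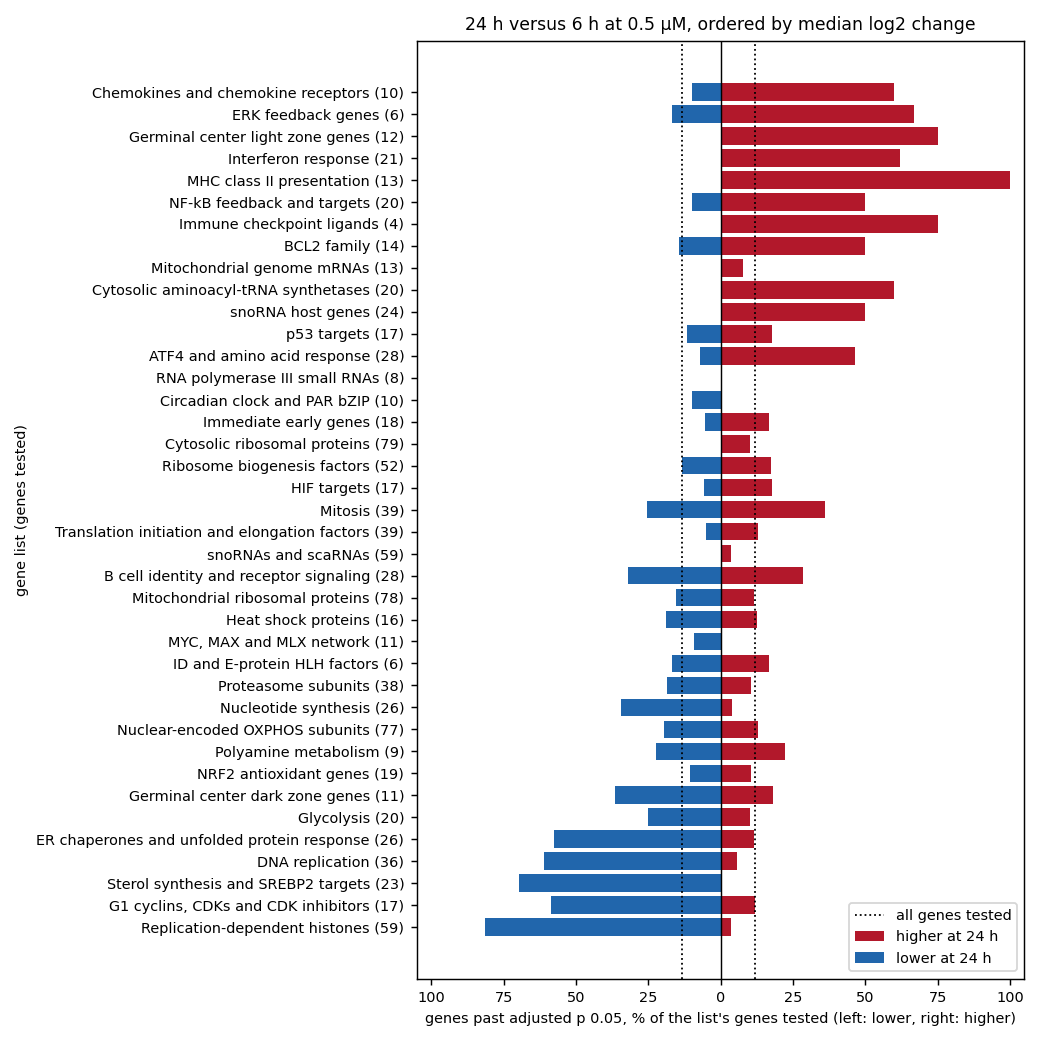
Share of the tested genes of each list (% of the list's tested genes, horizontal axis) that were higher (right) or lower (left) at 24 h than at 6 h with 0.5 µM Omomyc, with the number tested in parentheses and lists ordered by median log2 change. Dotted lines mark 11.9% higher and 13.5% lower over all genes tested; MHC class II reaches 100% to the right and replication-dependent histones 81.4% to the left.

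The untreated libraries show how much of the change at 6 h was still present at 24 h. Against untreated cells, 3209 of 13614 genes (23.6%) differed at 6 h, 1884 (13.8%) higher and 1325 (9.73%) lower, and 2 of 13674 genes (0.0146%) differed at 24 h. At an unadjusted p under 0.05 the count at 24 h was 763 (5.58%), and the 24 h and untreated libraries did not overlap for 11.5% of genes, compared with 41.4% for 6 h and untreated. The share of the 6 h calls that were higher was 58.7%, and it was 49.2% with quantile normalization and 79.8% when each library was rescaled to an equal sum of RPKM. Of the 13323 genes tested in all 3 comparisons, 3183 were called at 6 h. Of these 2425 (76.2%) were called in the opposite direction between 6 h and 24 h and were not called at 24 h against untreated cells, and are counted as returned. This was so for 1386 of the 1871 genes that were higher at 6 h and 1039 of the 1312 that were lower. A further 756 genes were in neither class, 755 of them because the change from 6 h to 24 h did not pass. Without 6 h replicate 2 or 6 h replicate 3 the returned genes numbered 1449 and 1450. The 3 comparisons share libraries, which ties the counts to one another, and a p above the threshold at 24 h does not show that a gene was back at its untreated level. As a description, 24 h was closer to untreated than to 6 h for at least 89.6% of the genes called at 6 h. This count leaves out genes that moved past their untreated level by a large part of the 6 h change. The median remaining part of the log2 change was 0.0948.

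Over all genes 76.2% of the changes at 6 h returned. All 11 MHC class II genes and all 10 interferon response genes called at 6 h returned, as did all 19 DNA replication genes, and 34 of 35 histone genes, 15 of 17 sterol synthesis genes, 13 of 15 genes of ER folding, 7 of 8 chemokine and receptor genes and 20 of 23 mitosis genes. The count was 6 of 10 for glycolysis, 4 of 7 for HIF targets, 14 of 23 for mitochondrial ribosomal proteins, 9 of 14 for the proteasome and 2 of 5 for ID and E-protein genes. Among the genes with the largest falls at 6 h, CCL1, FCRL5, CCL3 and CCL4 were at -3.27, -3.32, -3.06 and -2.85 at 6 h and at 0.45, 0.35, 0.15 and 0.20 at 24 h, as log2 changes from untreated. Among those with the largest rises at 6 h, HES6, a helix-loop-helix repressor, was at 1.24 and then 0.73, H2AFX at 1.30 and then 0.15, and FAM98C at 1.06 and then 0.29. HES6 differed least from its 6 h level among these (adjusted p = 0.0419 for 24 h versus 6 h), and this call was lost in 5 of the 6 fits that left out 1 library (-0.58 to -0.34). Most mitochondrial mRNAs did not return by this count. Of 13 tested, 10 were lower at 6 h (median -0.36) and 1 of these, MT-ND5, returned, a call that 4 of the 6 fits without 1 library did not give (0.16 to 0.26), and the median at 24 h against untreated cells was -0.16.

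The 2 genes called at 24 h against untreated cells had also been called, in the same direction, at 6 h. SLC7A5P2, a transcribed pseudogene of SLC7A5 that shares reads with its parent, was at 0 or near 0 in untreated cells, at 10.1, 15.7 and 22.4 at 6 h and at 16.9, 8.003 and 10.5 at 24 h. AC146944.1, another pseudogene, was near 0 in untreated cells, at 2.28, 1.91 and 0.807 at 6 h and at 3.07, 3.02 and 2.01 at 24 h. Neither passed between 24 h and 6 h (adjusted p = 0.32 and 0.12). Values near 0 for a gene with a near-identical copy may be failed estimates.

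A choice of genes that shares no library with the comparison of 24 h and 6 h came from the other dose. Of 2344 genes that were higher at 6 h with 2.5 µM Omomyc than in untreated cells and were also tested at 0.5 µM, 1402 (59.8%) were lower at 24 h than at 6 h with 0.5 µM and 2 were higher. Of 1440 genes that were lower at 6 h with 2.5 µM, 986 (68.5%) were higher at 24 h with 0.5 µM and 1 was lower. The 9588 genes not called at 6 h with 2.5 µM were higher in 6.48% and lower in 4.55% of cases, and the shares over all 13372 genes in both comparisons were 12% and 13.8%. The genes chosen in this way made up 76.2% of the genes that were lower, and 61.3% of those that were higher, at 24 h with 0.5 µM. The median log2 changes from 6 h to 24 h were -0.27, 0.34 and 0.014 for the genes higher, lower and not called at 6 h with 2.5 µM. Although no library is shared, the 6 h libraries of both doses may share a day or a handling step, which the labels do not give.

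**Figure D4:**
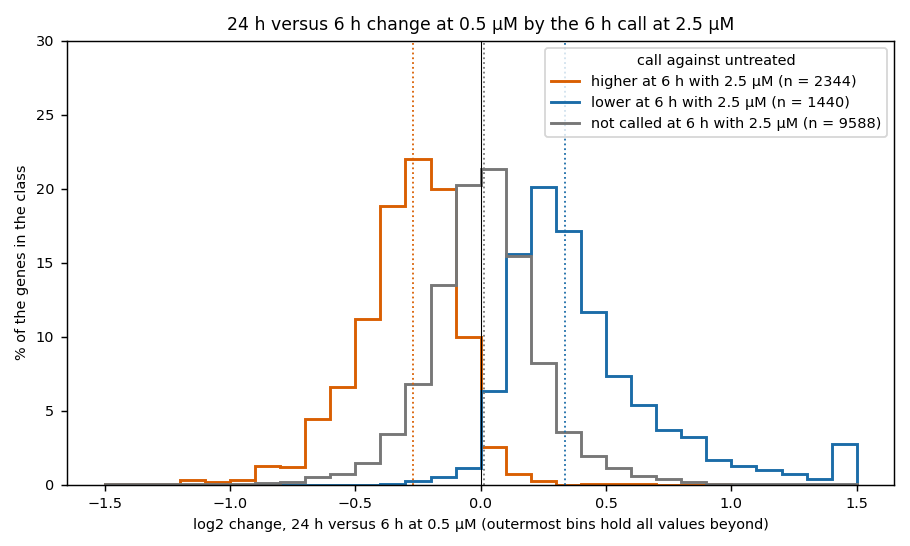
Distribution of the log2 change from 6 h to 24 h with 0.5 µM Omomyc (horizontal axis, bins of 0.1, the outermost bins holding all values beyond) as % of the genes in 3 classes made by the call at 6 h with 2.5 µM against untreated cells. Dotted lines mark the class medians of -0.27 (higher at 6 h), 0.34 (lower at 6 h) and 0.014 (not called).

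With 2.5 µM Omomyc, 3125 of 13564 genes (23%) differed between 24 h and 6 h. Whether the change with time differed between the doses was tested as an interaction of time and dose, which was past the threshold for 53 of 13588 genes (0.39%), 35 of them with a more positive and 18 with a more negative change at 0.5 µM. The more positive share was 66%, and it was 40% of 15 genes when each library was rescaled to an equal sum of RPKM. Where the mean RPKM was 2 or more, the 4 most positive differences were those of genes that rose at both doses. CCL1 changed by 3.72 ± 0.20 at 0.5 µM and 1.51 ± 0.18 at 2.5 µM (difference 2.21 ± 0.26, adjusted p = 0.00968). CCL4 changed by 3.05 ± 0.21 at 0.5 µM and 1.42 ± 0.17 at 2.5 µM (difference 1.63 ± 0.29, adjusted p = 0.0341), CCL3 by 3.21 ± 0.20 at 0.5 µM and 1.72 ± 0.13 at 2.5 µM (difference 1.48 ± 0.27, adjusted p = 0.035) and FCRL5 by 3.67 ± 0.13 at 0.5 µM and 2.62 ± 0.15 at 2.5 µM (difference 1.05 ± 0.20, adjusted p = 0.0473). Among less abundant genes, CCL3L1, the copy of CCL3, differed by 1.61 ± 0.32 and did not pass between 24 h and 6 h at 2.5 µM. CCR7 and DUSP5 differed by 1.18 and 1.14. The adjusted p-values (limma interaction) were 0.0499 for CCL3L1, 0.0473 for CCR7 and 0.0456 for DUSP5. CCL3L1 and CCR7 had 6 h means below the pseudocount of 0.5 at both doses, and the size of their differences depends on it. At 24 h the mean RPKM of CCL1 was 8.99 ± 0.653 (SD, n = 3) with 0.5 µM and 1.06 ± 0.0624 with 2.5 µM, beside 6.65 ± 2.04 in untreated cells. At 6 h the CCL1 means were 0.239 ± 0.214 and 0.0487 ± 0.0527. Both lay below the pseudocount of 0.5, so the size of the CCL1 difference depends on that setting. With a pseudocount of 0.1 the CCL1 difference did not pass (limma interaction, adjusted p = 0.18). Among the most negative differences, HBEGF, an EGF receptor ligand, changed by -0.69 ± 0.046 at 0.5 µM and -0.096 ± 0.057 at 2.5 µM (difference -0.60 ± 0.073, adjusted p = 0.00968). BSPRY changed by -0.82 ± 0.079 at 0.5 µM and -0.083 ± 0.062 at 2.5 µM (difference -0.73 ± 0.11, adjusted p = 0.0134), TUBB3 by -1.20 ± 0.079 at 0.5 µM and -0.56 ± 0.032 at 2.5 µM (difference -0.64 ± 0.094, adjusted p = 0.0134) and F8A1, which has near-identical copies, by -0.49 ± 0.12 at 0.5 µM and 0.34 ± 0.090 at 2.5 µM (difference -0.83 ± 0.14, adjusted p = 0.0318).

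Most genes described above did not pass this test. Of the gene lists, which share members, a more positive change at 0.5 µM passed for 4 of 12 light zone, 3 of 10 chemokine and receptor, 2 of 20 NF-kB and 2 of 13 MHC class II genes, and for 1 gene each of the immediate early, ERK feedback, BCL2 and B cell identity lists. A more negative change passed for 2 of 28 B cell identity genes and for 1 nucleotide synthesis gene, TYMS. Of 21 interferon response genes 0 passed, but the difference was positive for all 21, with a median of 0.53 (-0.025 over all genes). At 2.5 µM MX1, IFI6 and IFIT1 changed from 6 h to 24 h by -0.038 ± 0.19, -0.033 ± 0.13 and -0.079 ± 0.28, and IFIT3 by 0.37 ± 0.14. The count of 53 depended on single libraries. It was 2 without replicate 2 of the 6 h group at 0.5 µM, 25 without replicate 1 and 80 without replicate 3 of the 24 h group, 16 without replicate 3 of the 6 h group, and 16 to 19 without any one of the 6 libraries at 2.5 µM. CCL1 and HBEGF passed in each of these 12 fits, BSPRY and TUBB3 in 11, F8A1, CCL3 and CCL4 in 3 and FCRL5 in 2. For TXNIP the changes were 0.87 ± 0.079 at 0.5 µM and 0.80 ± 0.098 at 2.5 µM, for CCNB1 0.83 ± 0.055 at 0.5 µM and 0.77 ± 0.042 at 2.5 µM and for INSIG1 -0.89 ± 0.059 at 0.5 µM and -0.80 ± 0.033 at 2.5 µM. A p above the threshold does not show that the doses acted alike, and for INSIG1 the difference was -0.092 ± 0.069 (SE).

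**Figure D5:**
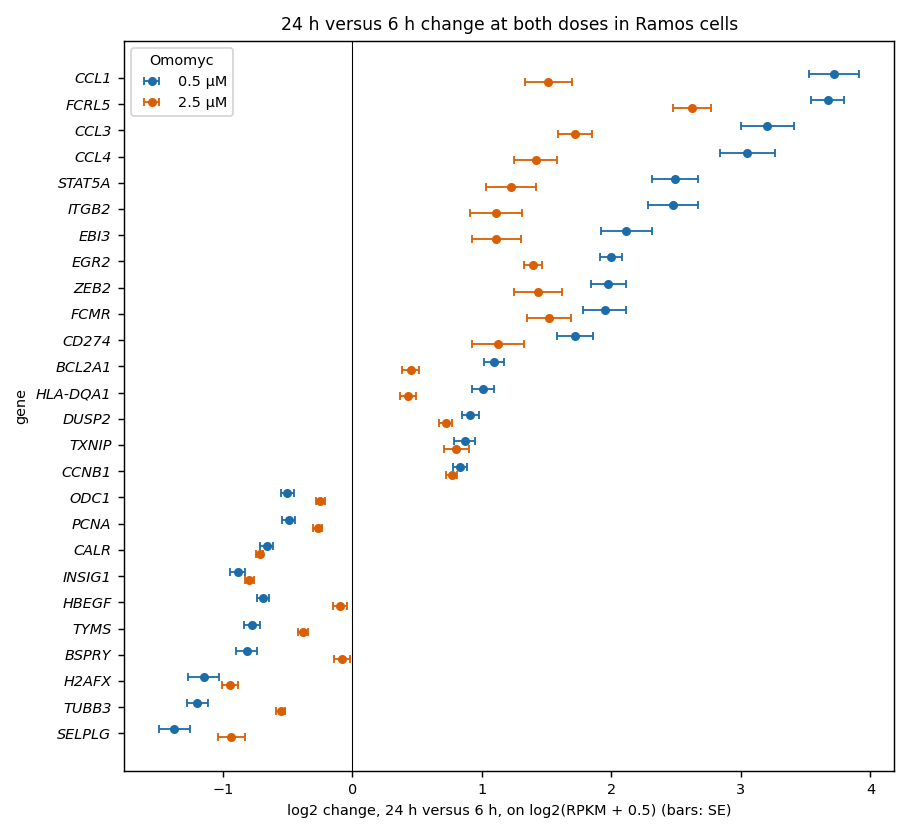
Log2 change from 6 h to 24 h (horizontal axis, on log2(RPKM + 0.5)) of 26 genes (vertical axis) in Ramos cells with 0.5 µM (blue) or 2.5 µM (orange) Omomyc; points are estimates and bars are SE (n = 3 per group). Changes at 2.5 µM lie nearer 0 for CCL1, CCL3 and CCL4, and close to those at 0.5 µM for TXNIP, CCNB1, CALR and INSIG1.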

How the data were processed

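RNA-Seq values were analysed for 9 Ramos libraries (3 untreated, 3 at 6 h and 3 at 24 h of 0.5 µM Omomyc), and for 6 libraries at 2.5 µM in the comparison of doses. The deposited table holds RPKM per gene, and RSEM is named in the submitters' processing notes with no version. The aligner settings and the read depth are not given in the sources used here, and the study's methods describe RNA-Seq for another cell line only. RSEM shares reads between similar genes, so values of near-identical copies are uncertain. Groups came from the sample titles.

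RPKM were transformed to log2(RPKM + 0.5). Genes whose mean RPKM over the libraries of a comparison reached 0.5 were fitted with limma 3.58.1 in R 4.3.3 (eBayes with a trend), with Benjamini-Hochberg adjustment over all genes tested and a threshold of 0.05. Each comparison used only its own groups, and the interaction used the 12 treated libraries. The scripts were tested on simulated data. A gene counted as returned when it was called at 6 h against untreated, called in the opposite direction at 24 h against 6 h, and not called at 24 h against untreated.

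The members and the 45 gene lists were chosen with earlier results of these data known, and describe rather than test. Genes were named by rule: the 12 largest rises and falls with a mean RPKM of at least 2 and no overlap of groups, the largest returned and remaining changes at 6 h, up to 4 called members of each list, the largest interactions, and MYC, MAX, ASNS, SAT1, ID3, EGR2 and CD274. Other list members were named after their values were seen. Alternatives were pseudocounts of 0.1 and 1, other filters, 3 other scalings, no trend, a replicate block, all 5 groups in one fit, stricter thresholds and leaving out each library. The replicate block used the replicate numbers in the titles. Promoter windows came from RefSeq (GRCh38.p14), matched by Ensembl gene ID, else by symbol or synonym, and gene positions from GENCODE release 29. Where a gene had several windows, that nearest its GENCODE start was used, except for the ODC1 window shown. A few list members are not reported here.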

Additional observations from a re-analysis of the deposited data

Results flagged for a closer look

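The change from 6 h to 24 h differed between 0.5 and 2.5 µM Omomyc by the test of the interaction of time and dose for 53 of 13588 genes (limma, Benjamini-Hochberg adjusted p under 0.05), and 1713 genes had an unadjusted p under 0.05. Among those named by rule, the difference of the log2 changes (0.5 µM minus 2.5 µM) was 2.21 for CCL1, 1.63 for CCL4, 1.48 for CCL3 and 1.05 for FCRL5, which rose at both doses and rose further at 0.5 µM. It was -0.83 for F8A1, -0.73 for BSPRY, -0.64 for TUBB3 and -0.60 for HBEGF. CCL1 passed in 20, HBEGF in 21, BSPRY and TUBB3 in 19, F8A1 in 11, CCL3 and CCL4 in 10 and FCRL5 in 7 of 22 alternative fits. CCL1, with 6 h means below the pseudocount of 0.5, did not pass with a pseudocount of 0.1 (limma, adjusted p = 0.18). The cause of these differences was not tested.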

How the results depend on the processing

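For 24 h versus 6 h (3462 genes) the count was 2307 with no filter on low values, 1731 at an adjusted p under 0.01, 117 with an absolute log2 change of at least 1, and 2256 (without 6 h replicate 2) to 2944 (without 6 h replicate 1) with 1 library left out. With equal sums of RPKM it was 2438, of which 39.1% were higher at 24 h, beside 46.9% of the 3462. For 6 h versus untreated (3209) these counts were 2008, 1440, 111 and 1853 (without 6 h replicate 2) to 3012 (without untreated replicate 3), and it was 1862 without 6 h replicate 3. For 24 h versus untreated (2) the count was 0 with no filter, 1 with a mean RPKM of at least 2, 4 with equal sums of RPKM, 1 with all 5 Ramos groups in one fit, and 1 (without 24 h replicate 1 or 2) to 4 (without untreated replicate 3). For returned genes (2425) it was 1417 with no filter, 1128 at an adjusted p under 0.01, 74 with an absolute log2 change of at least 1, and 1449 (without 6 h replicate 2) to 2215 (without untreated replicate 3). For genes chosen at 6 h with 2.5 µM and called the other way from 6 h to 24 h with 0.5 µM, the count was 2388. That count, added after seeing the data, starts from other genes. It sets no condition on 24 h versus untreated, so its size cannot be set against 2425. For the interaction (53) it was 35 with a pseudocount of 0.1, 2 with no filter, 15 with equal sums of RPKM (40% more positive at 0.5 µM, beside 66% of the 53), 8 with no trend in the variance prior, 11 with an absolute difference of at least 1, 2 at an adjusted p under 0.01, and 2 (without 6 h replicate 2) to 80 (without 24 h replicate 3) at 0.5 µM. Fewer libraries enter a fit that leaves 1 out, and more genes are adjusted over with no filter; the cause of the other differences was not tested.

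Of 168 named genes called at 24 h versus 6 h, 31 lost the call with no filter, 28 at an adjusted p under 0.01, 20 with no trend, 16 with equal sums of RPKM, 5 with the replicate block and 7 to 19 with 1 library left out. The change between 24 h and 6 h reversed in sign for 3 named genes with values near 0: MYC with equal sums of RPKM (-0.025) and in 2 of the fits with 1 library left out (-0.037 to 0.028), ID3 with quantile normalization (0.019) and in 3 such fits (-0.045 to 0.020), and RN7SL2 with equal sums (-0.000957) and in 3 such fits (-0.025 to 0.11). A fit that took the replicate number as a block gave counts of 3216 for 24 h versus 6 h, 2910 for 6 h versus untreated, 2 for 24 h versus untreated, 2220 returned and 48 for the interaction. No effect shared by libraries of the same replicate number was seen. The deviations of same-numbered 24 h and 6 h libraries from their group means correlated at 0.00346, 0.0402 and -0.0278, and not every library correlated best with its own number. With 3 libraries per group this cannot show whether the replicates were paired. Read depth is not given, so no limit of detection could be set for genes near 0.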

Other observations

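Genes of energy metabolism and protein turnover changed in shares nearer to those of all genes (11.9% higher and 13.5% lower at 24 h than at 6 h). Glycolysis had 2 of 20 higher and 5 lower, with ALDOC (-0.41 ± 0.072), ALDOA (-0.24), GPI (-0.23), PGAM1 (-0.20) and LDHA (-0.19) lower and the glucose transporter SLC2A3 (0.66 ± 0.12) and hexokinase HK1 (0.25) higher. Nuclear-encoded subunits of oxidative phosphorylation had 10 of 77 higher and 15 lower, and mitochondrial ribosomal proteins 9 of 78 higher and 12 lower. The proteasome list had 4 of 38 higher and 7 lower. The 3 that rose by the largest factors there were PSMA8 (0.45), a germ cell subunit, PSMB8 (0.25), a subunit of the immunoproteasome, and PSMA2 (0.19). Heat shock proteins had 2 of 16 higher and 3 lower, with DNAJB1 (-0.42) and HSPA1B (-0.31) lower and HSPA4 (0.34) higher. The medians of the lists of oxidative phosphorylation, mitochondrial ribosomal proteins and heat shock proteins changed sign with the scaling of the libraries.

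Stress and clock genes were called in shares near or below the 25.4% of all genes. Targets of NRF2 had 2 of 19 higher and 2 lower, and HMOX1, heme oxygenase, rose by 0.94 ± 0.17, while KEAP1, the NRF2 inhibitor, changed by -0.44 ± 0.047. Targets of HIF had 3 of 17 higher and 1 lower, led by INSIG2 (1.01 ± 0.082), which like INSIG1 retains the SREBP2 escort protein in the ER but moved the other way. Clock genes had 0 of 10 higher and 1 lower, the latter being NR1D2 (-0.39), which did not pass in 5 of the 6 fits without 1 library (-0.40 to -0.31). Small nucleolar RNAs had 2 of 59 higher and 0 lower. These groups were described after their values were seen.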
